A study of Homo sapiens with 10 samples.

Results

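A set of 10 genes of the actin cytoskeleton and of serum response factor (SRF) was followed through treatment of 2 glioblastoma lines with a cyclic AMP analogue: ACTB, ACTG1, ACTA2, SRF, TAGLN, CNN1, MYL9, TPM1, VCL and FLNA. They were taken by symbol from the 20379 genes of the deposited expression table, and all 10 were among the 12352 genes tested, those with a mean of at least 1 FPKM (fragment counts scaled by transcript length and library size) over the libraries. The lines were DBTRG-05MG and U87, both established human glioblastoma cell lines. Each line gave 1 poly(A) RNA library at 0, 6, 12, 24 and 48 h of 1 mM dibutyryl cAMP (dbcAMP), a form of cyclic AMP that enters cells, so there were 10 libraries and no repeat of any line at any time. The sample labels were followed for dose and time, since the series text differs from them in both. The 0 h library was the only reference in each line, and untreated cells kept for the later times were not analysed here. Time in culture therefore cannot be told apart from time in dbcAMP. No label ties a library to a separate culture.

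SRF is a transcription factor that binds the CArG box in the promoters of genes for actins, actin-binding proteins and contractile proteins. Its cofactors of the MRTF family bind monomeric actin and enter the nucleus when actin polymerises, so the genes encoding actin respond to the state of actin itself. A separate group of cofactors, the ternary complex factors, directs SRF to immediate early genes. Cyclic AMP acts through protein kinase A, and in astrocytes and glioma cells dibutyryl cAMP is known for changing cell shape and actin stress fibres.

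The CArG box was searched for in the 250 bases before each annotated gene start, because it is the sequence SRF binds. The RefSeq promoter table (GRCh38.p14) gave 9 such windows for 7 of the genes and none for TAGLN, ACTB and MYL9. The motif reads the same on both strands, and it was present in 3 of the 9 windows, those of SRF (with 2 boxes), ACTG1 and FLNA, against 1.16% of the 35116 windows in the table. The sequences are given 5′ to 3′ on the gene's own strand with the box in capitals. They lie at chr6:43171229-43171268 on the plus strand for SRF, chr17:81512874-81512903 on the minus strand for ACTG1, where the run overlaps an exon of ACTG1 itself in GENCODE, and chrX:154374709-154374738 on the minus strand for FLNA.

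SRF: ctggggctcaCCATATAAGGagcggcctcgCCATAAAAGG
ACTG1: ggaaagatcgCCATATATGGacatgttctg
FLNA: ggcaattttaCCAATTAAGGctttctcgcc

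With 1 letter allowed to differ, a search added after the exact matches were seen, a further window matched, making 4 of 9, against 16.8% of all windows. It was an ACTA2 window, and its near matches lie at chr10:88952875-88952904 and chr10:88952825-88952854 on the minus strand.

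ACTA2 first: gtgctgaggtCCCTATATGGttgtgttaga
ACTA2 second: tgtctttgctCCTTGTTTGGgaagcaagtg

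The cyclic AMP response element TGACGTCA, also a palindrome, was in 0 of the 9 windows and in 1.65% of all windows. A match describes the letters only and was not tied to any level below.

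The libraries were of similar depth, 100 to 117% of the DBTRG-05MG 0 h library by the size of the smallest steps in the values, or about 8.88 M (mega) fragments in that library and up to 10.4 M in others. At that depth CNN1 rested on about 10.3 to 47.7 fragments per library, and MYL9 and TAGLN in U87 on as few as 17.6 and 30.5. The U87 library at 24 h stood apart: 222 tested genes differed at least 2-fold, in the same direction, from both neighbouring times, against 33 to 67 for the other middle times, and none of the 10 genes was among them. Of 8 glial and glioma markers, GFAP, S100B and AQP4 were below 1 FPKM at every time in both lines, OLIG2 did not exceed 2.01, and SOX2 was at 23.0 to 36.6 in DBTRG-05MG and at 0 in U87. NES, VIM and CD44, which glioma cells share with many other cells, were at least 4.94 FPKM in every library. Of 8 smooth muscle and pericyte markers, LMOD1, SYNPO2 and RGS5 were below 1 FPKM in both lines and MYH11 and DES at most 1.74, while SMTN, PDGFRB and MCAM were expressed. The summed level of these 8 was 66.5 to 105 FPKM in DBTRG-05MG and 65.1 to 117 in U87. SMTN, smoothelin, was at 17.3, 21.0 and 4.53 FPKM at 0, 6 and 48 h in DBTRG-05MG and at 94.8, 68.6 and 43.3 in U87. MCAM and PDGFRB went the other way from 0 to 48 h. MCAM was at 46.3 and 74.1 FPKM at those times in DBTRG-05MG and at 7.41 and 9.28 in U87. PDGFRB was at 1.62 and 1.98 FPKM in DBTRG-05MG and at 8.33 and 10.5 in U87. The part of such cells in the results was not tested. Of 8 blood, endothelial and epithelial markers, 7 stayed below 1 FPKM, and CD68 did not. In bulk RNA, fewer cells of a kind and less RNA per cell cannot be told apart.

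Most of the 10 genes had a high early point, and all of them were lower at 48 h than at 6 h in the values as deposited, while ACTA2, FLNA and ACTG1 were not highest early in both lines. At 6 h 8 of 10 stood above their 0 h level in both lines, against 22.3% of all genes tested, and 0 stood below it in both lines, against 35%. At 12 h 3 of 10 were above 0 h in both lines (TAGLN, CNN1 and TPM1) and 0 below, against 22.6% and 27.7% of all genes. At 24 h 2 were above (TAGLN and CNN1) and 4 below (ACTA2, MYL9, TPM1 and FLNA), against 15.1% and 24.4%. By 48 h 5 of 10 were below 0 h in both lines, against 36% of all genes, and 0 were above it in both, against 23.6%. The step from 6 to 48 h, chosen after the levels were seen and given as a description, was downward for 10 of 10 in both lines, against 28% of all genes. Its median was -1.14 on the log2(FPKM + 1) scale in DBTRG-05MG and -0.51 in U87, where the medians over all genes tested were 0.11 and -0.10. The count of 10 includes CNN1, which rests on few fragments, and ACTG1, whose step in U87 was only -0.06. None of these changes with time passed the test for a single gene, as set out further on.

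**Figure D1:**
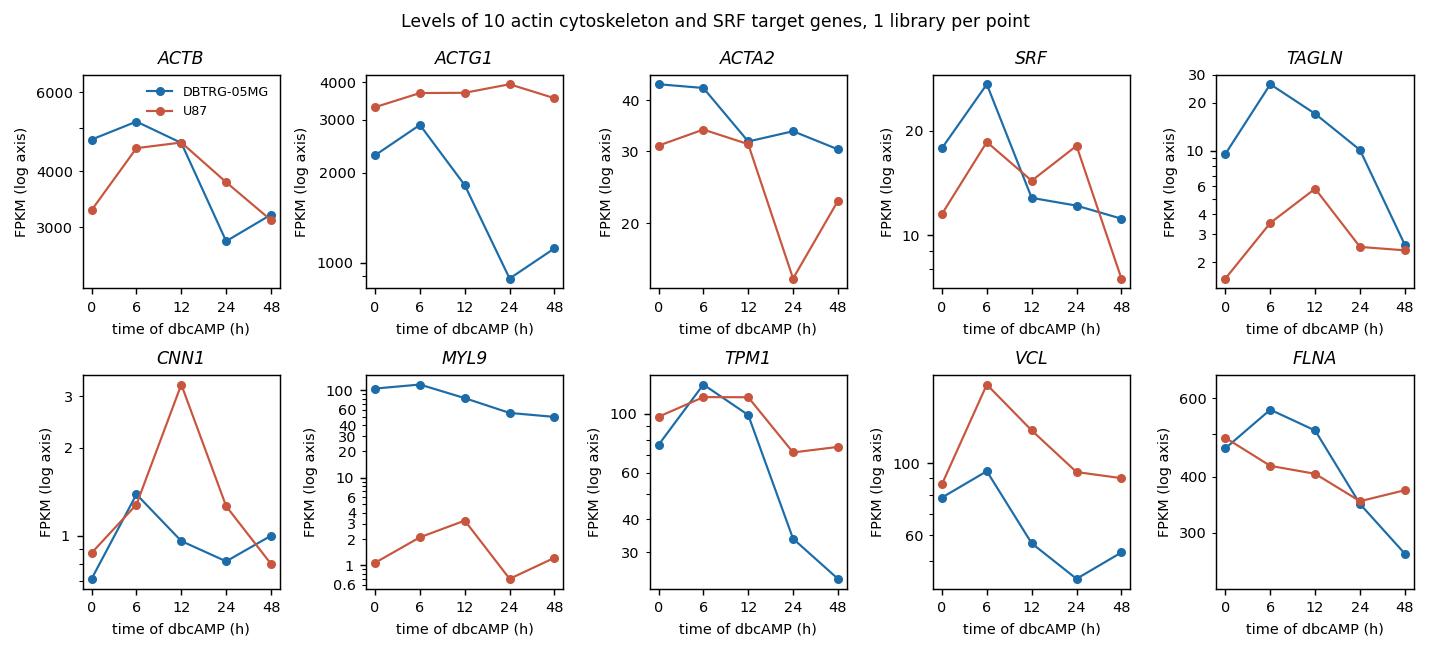
Level of each gene in FPKM (vertical log axes, each with its own range) against the time of dbcAMP in hours, spaced by rank, with 1 library per point and no error bar. In DBTRG-05MG 9 of the 10 genes are highest at 6 h, against 13.7% of all genes tested, and in U87 8 are highest at 6 or 12 h, against 39.3%.

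ACTB and ACTG1 encode the cytoplasmic beta and gamma actins that make up most of the actin of non-muscle cells. ACTB (chromosome 7, 5527147 to 5563784, GRCh38, minus strand) was at 4706, 5162, 4626, 2791 and 3199 FPKM in DBTRG-05MG at 0, 6, 12, 24 and 48 h. In U87 it was at 3274, 4503, 4636, 3779.9 and 3109.7 FPKM. The levels of the lines overlapped, with the highest value at 6 h in one line and at 12 h in the other, and they ended close together at 48 h. ACTB is often used as a reference gene for normalising expression, and its highest level was 1.85 times its lowest in DBTRG-05MG.

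ACTG1 (chromosome 17, 81509971 to 81523847, minus strand) was at 2283, 2885, 1814, 885 and 1116 FPKM in DBTRG-05MG. In U87 it was at 3306, 3685, 3692, 3943 and 3542 FPKM. The lines did not overlap: each U87 library was above every DBTRG-05MG library, and the time courses parted after 6 h, when DBTRG-05MG dropped below its 0 h level and U87 stayed above. The ratio of ACTB to ACTG1 in FPKM accordingly ran at 2.06, 1.79, 2.55, 3.15 and 2.87 in DBTRG-05MG, and at 0.990, 1.22, 1.26, 0.959 and 0.878 in U87. The 10 genes together made up 1.89, 2.17, 1.78, 1.04 and 1.13% of all FPKM in DBTRG-05MG, most of it these 2 actins, and 1.54, 1.87, 1.86, 1.80 and 1.48% in U87. The beta and gamma actin proteins are close to identical and their coding sequences are similar, so RSEM's assignment of fragments shared between them could move these ratios.

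ACTA2, the smooth muscle alpha actin and a marker of contractile and myofibroblast-like cells, did not share the early high point in DBTRG-05MG. It was at 43.8, 42.9, 31.7, 33.6 and 30.3 FPKM there, and at 31.0, 33.9, 31.2, 14.7 and 22.7 FPKM in U87. The lowest of these 10 values was the U87 library at 24 h, the library that stands apart. ACTA2 (chromosome 10, 88935074 to 88991339, minus strand) overlaps STAMBPL1, FAS and ACTA2-AS1 on the opposite strand, and no source used here names strand marking in the libraries, so fragments of these genes cannot be told apart in the overlap.

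SRF itself, whose promoter holds 2 CArG boxes in the run printed above, had its highest value at 6 h in both lines as deposited. SRF (chromosome 6, 43171299 to 43181507, plus strand) was at 17.8, 27.2, 12.8, 12.2 and 11.2 FPKM in DBTRG-05MG and at 11.5, 18.5, 14.3, 18.1 and 7.50 FPKM in U87. The DBTRG-05MG value at 6 h was above all 9 others, and the 48 h value was the lowest of each line. In U87 the 24 h value was nearly level with that at 6 h, and under each of the 3 rescalings run SRF was no longer highest at 6 or 12 h in both lines.

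TAGLN, or transgelin, an actin-binding protein of smooth muscle, had the widest range of the 10 genes in DBTRG-05MG. TAGLN (chromosome 11, 117199321 to 117204782, plus strand) was at 9.56, 26.1, 17.0, 10.1 and 2.58 FPKM in DBTRG-05MG and at 1.59, 3.53, 5.79, 2.50 and 2.38 FPKM in U87. Both lines were highest at 6 or 12 h, but at 48 h DBTRG-05MG was below its own start and U87 was not, so that the lines ended near each other. The highest DBTRG-05MG level was 10.1 times the lowest. TAGLN overlaps PCSK7 on the opposite strand.

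CNN1, or calponin 1, which binds actin and restrains myosin in smooth muscle, was barely detected. It was at 0.711, 1.38, 0.958, 0.816 and 0.999 FPKM in DBTRG-05MG and at 0.872, 1.28, 3.29, 1.26 and 0.799 FPKM in U87. Only the U87 library at 12 h exceeded 2 FPKM, and at the few fragments behind each value the other differences cannot be resolved.

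MYL9 encodes a regulatory light chain of smooth muscle and non-muscle myosin, the chain whose phosphorylation switches contraction on. It was at 105, 116, 81.4, 55.1 and 49.7 FPKM in DBTRG-05MG and at 1.07, 2.10, 3.25, 0.703 and 1.22 FPKM in U87. The lowest DBTRG-05MG value was far above the highest U87 value, and within each line the high point was again at 6 or 12 h.

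TPM1 encodes tropomyosin 1, which lies along actin filaments and controls access of myosin. TPM1 (chromosome 15, 63042632 to 63071915, plus strand) was at 76.4, 129, 99.1, 33.8 and 23.8 FPKM in DBTRG-05MG and at 97.6, 116, 116, 71.5 and 75.1 FPKM in U87. In each line the values at 6 and 12 h were above that at 0 h, and the values at 24 and 48 h were below it. The highest DBTRG-05MG level was 5.42 times the lowest.

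VCL, or vinculin, links integrin adhesions to actin. It was at 78.4, 94.4, 56.7, 44.1 and 53.1 FPKM in DBTRG-05MG and at 86.2, 174, 126, 93.9 and 89.9 FPKM in U87. In U87 the 6 h library was about 2-fold above 0 h and the level had returned near its start by 24 h, whereas DBTRG-05MG was below its start from 12 h on. VCL overlaps AP3M1 on the opposite strand.

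FLNA, or filamin A, which crosslinks actin filaments into networks, was highest at a different time in each line. It was at 464, 565, 508, 348 and 269.6 FPKM in DBTRG-05MG and at 489, 424, 407, 353 and 374 FPKM in U87. In DBTRG-05MG it had the 6 h high point of most other genes, and in U87 the 0 h library was the highest and all later ones were lower. At 24 and 48 h both lines were below their start. The difference in slope was 0.12 ± 0.10 (SE) per time step, with an adjusted p of 0.593 in limma.

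By median FPKM, the order in DBTRG-05MG was ACTB, ACTG1, FLNA, MYL9, TPM1, VCL, ACTA2, SRF, TAGLN and CNN1. Over time the ranges of ACTB and ACTG1 overlapped there, as did those of MYL9, TPM1 and VCL, of TPM1 with ACTA2, SRF and TAGLN, and of SRF and TAGLN. In U87 the order was ACTB, ACTG1, FLNA, TPM1, VCL, ACTA2, SRF, TAGLN, CNN1 and MYL9. There the ranges over time overlapped between ACTB and ACTG1, between TPM1 and VCL, between ACTA2 and SRF, and among TAGLN, CNN1 and MYL9. Overlap over time does not by itself leave an order open, since ACTB was above ACTG1 in every DBTRG-05MG library. Where the order changed between libraries, as for ACTB and ACTG1 in U87, it is not settled by these libraries.  At 6 h TAGLN in DBTRG-05MG and VCL in U87 were the genes at least 2-fold above 0 h on the log2(FPKM + 1) scale, against 1.17% and 2.73% of all genes. At 12 h TAGLN, CNN1 and MYL9 passed that size in U87, against 2.61% of all genes, and 0 of the 10 did in DBTRG-05MG, against 2.47%. At 24 h ACTG1 and TPM1 were at least 2-fold below 0 h in DBTRG-05MG, against 1.6% of all genes, and ACTA2 in U87, against 4.5%. At 48 h TAGLN, ACTG1, MYL9 and TPM1 were at least 2-fold below 0 h in DBTRG-05MG, against 5.16% of all genes, and 0 of 10 in U87, against 4.32%. Single libraries stand behind each of these counts, so they have no replicate check.

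**Figure D2:**
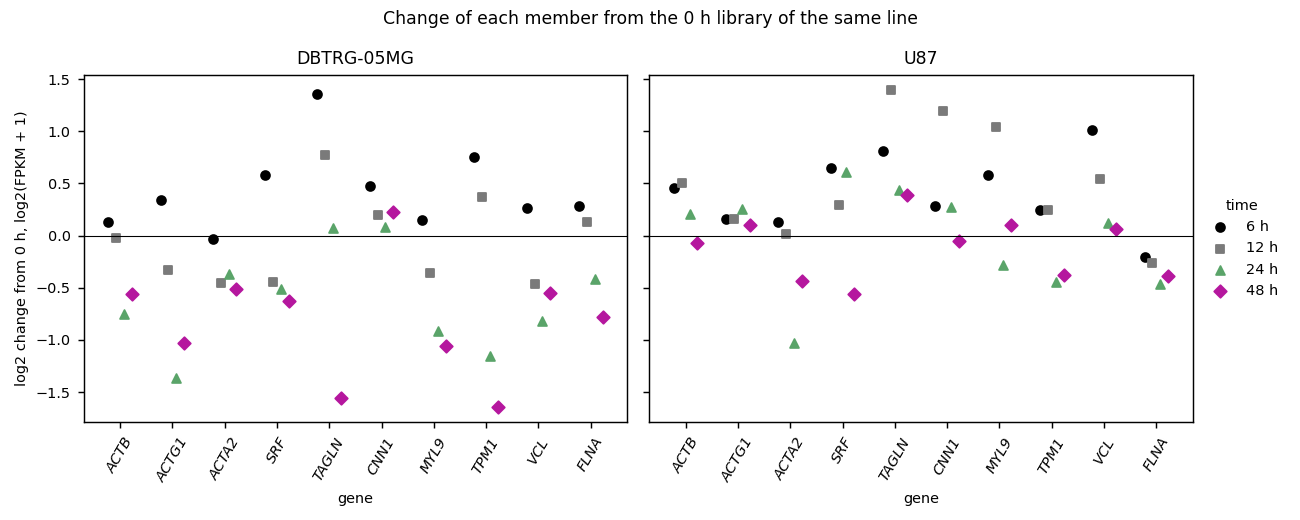
Change of each gene from the 0 h library of its own line, as a difference of log2(FPKM + 1), with 1 symbol per later time in hours and a panel per line. In DBTRG-05MG the 48 h symbols lie below 0 for 9 of 10 genes, against 47.7% of all genes tested, and in U87 for 6 of 10, against 63.5%.

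The median change of the 10 genes in DBTRG-05MG was 0.31, -0.18, -0.63 and -0.70 at 6, 12, 24 and 48 h. Over all genes tested in that line it was -0.07, 0.00, 0.05 and 0.02. In U87 the median of the 10 was 0.37, 0.40, 0.16 and -0.07, and that of all genes -0.01, -0.04, -0.15 and -0.15. The 10 genes thus stood above the median gene at 6 h in both lines and below it at 48 h in DBTRG-05MG, whereas their U87 median at 48 h was slightly above that of all genes. Every one of these medians shares the 0 h library of its line.

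The time of the highest level was counted after the levels were seen, and is a description. In DBTRG-05MG 9 of 10 genes were highest at 6 h, against 13.7% of all genes, ACTA2 being highest at 0 h. In U87 ACTA2, TPM1, SRF and VCL were highest at 6 h, against 25.4% of all genes, and TAGLN, ACTB, CNN1 and MYL9 at 12 h, against 13.9%. ACTG1 was highest at 24 h and FLNA at 0 h in U87. Both lines were highest at 6 or 12 h for 7 of 10 genes, against 14.7% of all genes, and for 8 of 10, against 16.8%, without the U87 library at 24 h. With equal totals without BCYRN1, an abundant short RNA, the count was 6 of 10, against 14.4% of all genes. With median centring or upper quartile scaling it was 7, against 13.6% and 13.9%, with SRF lost and ACTA2 gained.

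From 6 to 48 h the step was at least 2-fold downward for TAGLN, ACTG1, MYL9, TPM1, SRF and FLNA in DBTRG-05MG, 6 of 10 against 5.5% of all genes. In U87 it was for SRF only, 1 of 10 against 7.97%. ACTG1 and FLNA had the smallest steps in U87, and their direction in that line turned when values were centred on each library's median, which left 8 of 10 genes with a downward step in both lines, against 24.4% of all genes. Upper quartile scaling left 9 of 10, without ACTG1, against 24.9%.

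**Figure D3:**
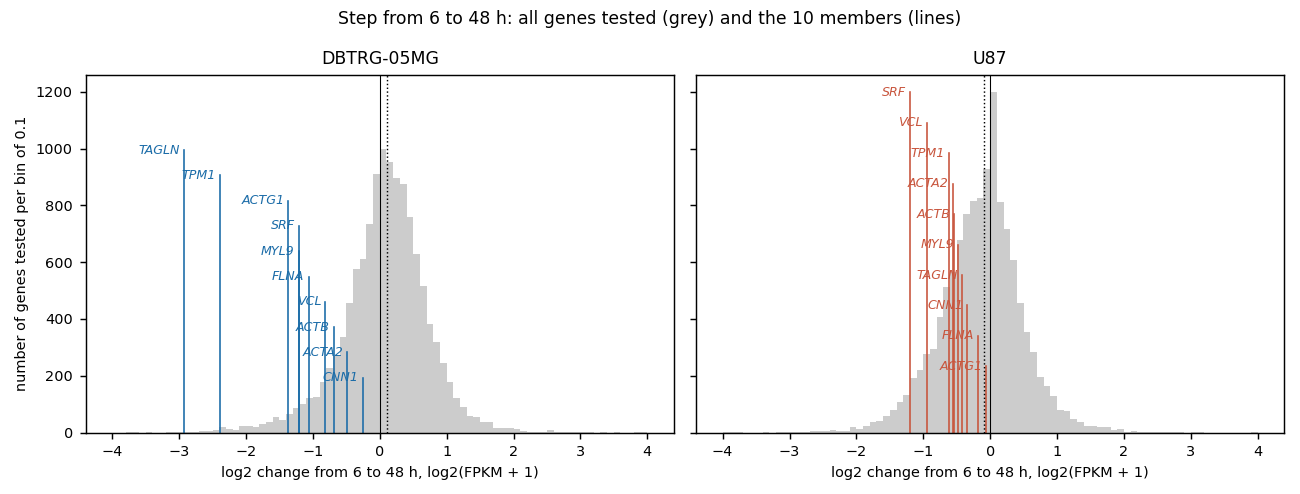
Difference of log2(FPKM + 1) between 48 h and 6 h (horizontal axis), with a panel per line: grey bars count the genes tested per bin (values beyond the axis are in the end bins), the dotted line is their median, and each coloured line, whose height only spaces the names, marks 1 of the 10 genes. All 10 lines lie below 0 in both panels, as do 28% of all genes, from TAGLN as the lowest in DBTRG-05MG to ACTG1 close to 0 in U87.

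The test for change at each time treated the lines as blocks (limma on log2(FPKM + 1), n = 2 libraries a time, 4 residual degrees of freedom), and it called 0 of the 10 genes at 6, 12, 24 or 48 h after Benjamini-Hochberg adjustment at 0.05. The background was small, 0.0081% of all genes at each of 6, 12 and 24 h and 0% at 48 h. At an unadjusted p under 0.05 the counts were 1 gene at 6 h (VCL), 0 at 12 h, 1 at 24 h (ACTA2) and 1 at 48 h (TPM1). Over the 12352 genes tested the counts at that p were 656, 552, 433 and 1512 at these times. The mean change of the 2 lines at 6 h was 1.08 ± 0.49 (SE) for TAGLN with an adjusted p of 0.937 in limma. It was 0.64 ± 0.27 for VCL, 0.61 ± 0.31 for SRF and 0.50 ± 0.39 for TPM1. At 48 h the mean change was -1.01 ± 0.39 for TPM1 with an adjusted p of 0.342 in limma. It was -0.59 ± 0.31 for SRF, -0.58 ± 0.27 for FLNA and -0.59 ± 0.49 for TAGLN, whose sign rested on 1 library: without DBTRG-05MG at 48 h it was 0.33. After adjustment over all genes tested, none of these changes was distinguished from the spread, here the disagreement of the 2 lines over all times.

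Slopes over the rank of time used all 5 libraries of a line (limma, 6 residual degrees of freedom). For the slope common to both lines 0 of 10 genes were called, against 0.0729% of all genes. At an unadjusted p under 0.05, 5 had a negative slope (ACTA2, ACTG1, MYL9, TPM1 and FLNA). In either direction 2158 of the 12352 genes tested had such a p. TPM1 stood at -0.33 ± 0.10 (SE) per time step with an adjusted p of 0.14 in limma, and FLNA at -0.16 ± 0.05 with 0.151. Within DBTRG-05MG 0 of 10 were called, against 1.12% of all genes. There 5 had a negative slope at an unadjusted p under 0.05 (ACTB, ACTG1, MYL9, TPM1 and FLNA). In either direction 2210 of the 12352 genes tested did. ACTG1 was at -0.38 ± 0.10 and TPM1 at -0.52 ± 0.14 per step, with adjusted p values of 0.0884 and 0.0993 in limma. TPM1 was called, in both the common and the DBTRG-05MG slope, when the DBTRG-05MG library at 0 h was left out (adjusted p = 0.0402 and 0.0183 in limma). Within U87 0 of 10 were called, against 0% of all genes. Of the 10, ACTA2 alone was at an unadjusted p under 0.05, as were 1545 of the 12352 genes tested. A straight slope is a poor description of a course that is highest at 6 or 12 h.

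The difference in slope between the lines, U87 minus DBTRG-05MG, was largest for TAGLN, at 0.48 ± 0.29 (SE) per time step. ACTG1, at 0.41 ± 0.13, had the lowest p of the 10 genes. The adjusted p of ACTG1 was 0.289 in limma, so that 0 of 10 genes were called for a difference in slope, against 0.0162% of all genes. ACTG1 was the 1 gene of the 10 at an unadjusted p under 0.05, as were 1661 of the 12352 genes tested. The parting of the ACTG1 courses described above was therefore not distinguished from the spread after adjustment over all genes.

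The lines differed in level for 5 of the 10 genes (limma, all 5 times, adjusted p under 0.05), against 55% of all genes tested, a share near the background. Of these 2 were higher in U87, against 19.7% of all genes, and 3 lower, against 35.2%. The 5 libraries of a line are its 5 times and not repeats. Each p here therefore sets the difference of the lines against its scatter over time. MYL9 was lower in U87 by far, at -4.95 ± 0.21 (SE, log2(FPKM + 1), U87 minus DBTRG-05MG, n = 5 libraries a line, 1 per time) with an adjusted p of 1.38e-07 in limma. TAGLN was lower in U87 at -1.55 ± 0.31 and ACTA2 at -0.48 ± 0.17, with adjusted p values of 0.00235 and 0.0416 in limma. ACTG1 and VCL were higher in U87, at 1.15 ± 0.28 and 0.79 ± 0.17, with adjusted p values of 0.0071 and 0.00355 in limma. The ACTA2 call was lost when any 1 library other than those at 12 h was left out (adjusted p from 0.0628 to 0.117 in limma), and with median centring (0.286). TPM1 was not called, at 0.62 ± 0.24 with an adjusted p of 0.0567 in limma. The ranges of the lines were apart for ACTG1 and MYL9 only, 2 of 10 genes against 40.9% of all genes.

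Other genes of the pathway were taken from lists of textbook members. Among 29 other contractile and adhesion genes reported as targets of MRTF and SRF, 13 were above 0 h at 6 h in both lines and 6 below, against 22.3% and 35% of all genes. At 48 h 2 were above and 17 below in both lines, against 23.6% and 36%, and 14 of 29 were lower at 48 than at 6 h in both, against the 28% of all genes. In this list 2 genes were called for the common slope, against 0.0729% of all genes, and the same 2 for the DBTRG-05MG slope, against 1.12%. CNN3, a calponin of non-muscle cells, fell from 127 to 30.5 FPKM between 0 and 48 h in DBTRG-05MG and stood at 72.9 and 47.0 in U87, with a common slope of -0.33 and an adjusted p of 0.0277 in limma. ANKRD1, a nuclear ankyrin repeat protein and a widely used reporter of mechanical signalling, fell from 131 to 9.04 FPKM in DBTRG-05MG. ANKRD1 was at most 0.363 FPKM in U87, so that its common slope of -0.51 (adjusted p = 0.0427 in limma) rests on DBTRG-05MG. The DBTRG-05MG slope of CNN3 was -0.54 ± 0.06 (SE) per time step, that of ANKRD1 was steeper, and their adjusted p values were 0.00499 and 0.00346 in limma. Without the DBTRG-05MG library at 48 h these became 0.0857 and 0.0633, and both common slopes lost their call without any 1 of 6 libraries (DBTRG-05MG at 6, 24 or 48 h, U87 at 6, 12 or 48 h; adjusted p from 0.0509 to 0.202 in limma). CTGF, a secreted matricellular protein, was at 145, 204 and 38.8 FPKM at 0, 6 and 48 h in DBTRG-05MG and at 16.1, 71.2 and 13.2 FPKM in U87, highest at 6 h among these times in both lines, without passing the test. FHL1, a LIM domain protein, went the other way without passing the test: DBTRG-05MG had 6.46 FPKM of it at 0 h and 17.0 at 48 h, and U87 had 3.82 and 6.22.

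The immediate early genes that SRF controls with the ternary complex factors were higher at 6 h in both lines for 6 of 7 genes tested, and lower in 0, against 22.3% and 35% of all genes. Their median change at 6 h was 1.30 in DBTRG-05MG and 0.20 in U87, and 6 of 7 were lower at 48 than at 6 h in both lines, against 28% of all genes. EGR1, a zinc finger transcription factor, was at 25.4, 70.1, 60.6, 64.8 and 52.6 FPKM in DBTRG-05MG, and JUNB, an AP-1 subunit, at 39.7, 100.2, 58.0, 68.1 and 60.3. All 7 were above their 0 h level at 48 h in DBTRG-05MG, as were 6419 of the 12352 genes tested. In U87 5 of 7 were below it, near the 63.5% of all genes, with a median of -0.49 against -0.15 over all genes. In U87 EGR1 was at 8.47, 9.91, 13.6, 32.5 and 5.16 FPKM, with its high value in the library that stands apart. JUNB was at 47.0, 48.7, 80.9, 92.1 and 77.4 FPKM in U87, also highest in that library, and was higher at 48 than at 6 h. None of the 7 was called at any time or for any slope in limma.

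Of the 8 SRF cofactors listed 6 were expressed highly enough to test, and 4 of the 6 were lower at 48 h in both lines, against 36% of all genes. MYOCD, myocardin, the cofactor of smooth and heart muscle, was at most 0.348 FPKM in any library. MKL1, which encodes the cofactor MRTF-A, was at 18.2 and 12.1 FPKM at 0 and 48 h in DBTRG-05MG and at 7.72 and 5.73 FPKM in U87. ELK3, a ternary complex factor, was at 44.1 and 21.1 FPKM at those times in DBTRG-05MG and at 38.7 and 14.4 FPKM in U87, a mean change of -1.20 ± 0.41 (SE) with an adjusted p of 0.289 in limma. None of the 6 was called at any time or for any slope.

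Of the 9 subunit genes of the Arp2/3 complex, which nucleates branched actin, 0 were higher and 4 lower at 6 h in both lines, against 22.3% and 35% of all genes, so the lower share is near the background. ACTR3, one of its core subunits, was at 106 and 68.3 FPKM at 0 and 48 h in DBTRG-05MG and at 180 and 118 in U87. None of the 9 was called at any time or for any slope in limma.

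Of the 7 other actin isoforms and actin monomer-binding genes tested, 1 was higher and 4 were lower at 6 h in both lines, against 22.3% and 35% of all genes, and 1 of 7 was lower at 48 than at 6 h in both, against 28%. PFN1, the monomer-binding protein profilin, was at 947 and 716 FPKM at 0 and 48 h in DBTRG-05MG and at 1196 and 936 in U87. GSN, gelsolin, which severs filaments, was at 79.5 and 124 FPKM in DBTRG-05MG and at 62.8 and 83.1 in U87. The gene higher at 6 h in both lines, chosen for mention after its values were seen, was ACTC1, the cardiac alpha actin. It was at 0.122, 0.654, 0.219, 0.350 and 0.0572 FPKM in DBTRG-05MG and at 0.0267, 5.67, 4.66, 0.0570 and 0.238 FPKM in U87. Its 2 high values in U87 were at 6 and 12 h, the times of the 2 highest values of TAGLN and MYL9 in that line, and none of its changes passed the test. ACTC1 reached the mean of at least 1 FPKM needed for testing only through these 2 values. Every other library was at most 0.654 FPKM, so the rise in DBTRG-05MG lay near the floor. Its place among the 7 genes tested, and in the count of 1 higher at 6 h, therefore rests on the values described.

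**Figure D4:**
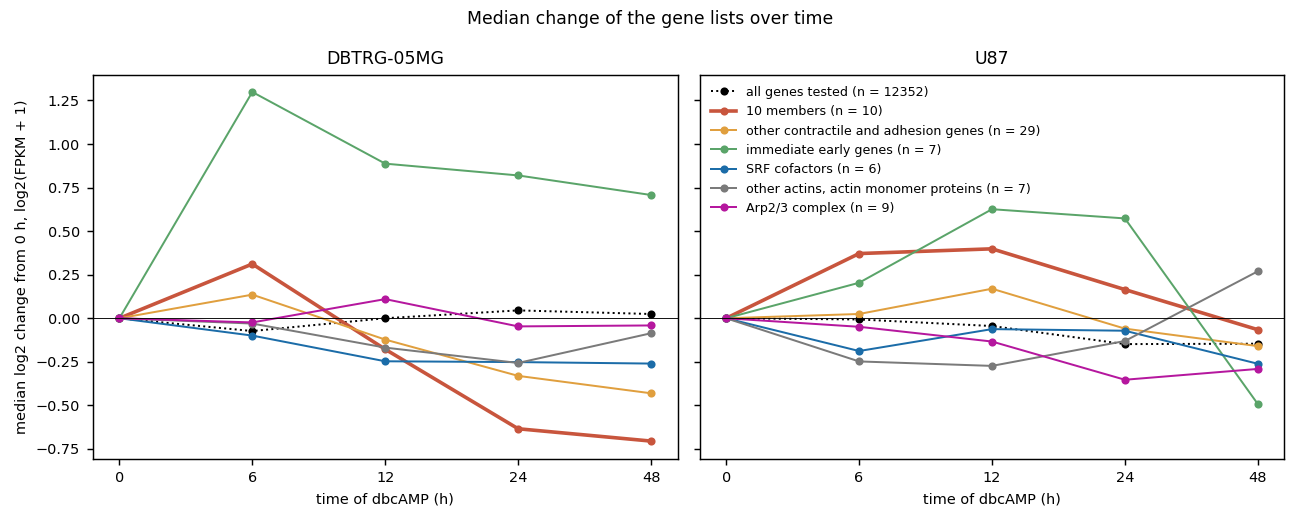
Median change from 0 h, as a difference of log2(FPKM + 1), of the 10 genes, of the 5 pathway lists described and of all genes tested, against time in hours, with a panel per line and 1 library per time. The 10 genes go from 0.31 at 6 h to -0.70 at 48 h in DBTRG-05MG and from 0.37 to -0.07 in U87.

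For the 3 genes of the 10 with the widest range within a line, all in DBTRG-05MG, the genes most alike over the 8 changes from 0 h (4 times in each line) were ranked by Pearson r among other genes averaging 5 FPKM or more. In U87 ACTG1 had the narrowest range of the 10, so its r rests mainly on DBTRG-05MG. The 8 changes share 2 reference libraries, so r is a description. The nearest to TPM1 was MYH9, the heavy chain of non-muscle myosin IIA and itself on the contractile list, with r = 0.99. MYH9 was at 312, 407, 352, 194 and 182 FPKM in DBTRG-05MG and at 394, 430.1, 450.1, 327 and 334 in U87, so it too was above 0 h at 6 and 12 h and below it at 24 and 48 h in both lines. HIATL2 and EEF1B2 followed for TPM1 with r = 0.96 and 0.95. The nearest to TAGLN were GLIPR1 and PHF2, each with r = 0.96, and LRRC17 with r = 0.95, although LRRC17 was at most 0.261 FPKM in U87. The nearest to ACTG1 were DDX41 and PTTG1IP, each with r = 0.97, and WSB2 with r = 0.96.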

How the data were processed

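Expression values of 20379 genes in 10 libraries were used as the authors deposited them, in 1 table. The unit is not given in the sources used here. The deposited values were read as FPKM from the steps of their low values, and 0.002 stands for 0. The submitters' processing notes name HISAT, Bowtie2, RSEM and hg38. RSEM splits fragments among similar transcripts, which touches the actins. Depth was estimated from the steps of low values, so the fragment numbers are approximate (quartiles 8.77 and 8.92 M over 298 genes).

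From these values log2(FPKM + 1) was tested with limma 3.58.1 in R 4.3.3 (empirical Bayes with a mean-variance trend) over the 12352 genes that averaged 1 FPKM or more. Each later time was compared with 0 h with cell line as a block, and slopes used the rank of time. The pairing comes from the cell line itself. P-values were Benjamini-Hochberg adjusted over all genes tested, with a threshold of 0.05. They measure the spread between these libraries, which no label ties to separate cultures. Fold sizes are on the log2(FPKM + 1) scale and understate changes of low genes. The fit was tested on simulated data. Positions and overlaps came from GENCODE 29 on GRCh38.

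All 10 genes are named. From each pathway list the 4 genes with the largest mean change at 48 h among those averaging 5 FPKM or more, and those past the threshold, could be named; 1 list is not reported here. The members and lists were chosen with earlier results of these data known. Which fitted values to print was chosen after all of them had been seen. Pseudocount, filter, scaling, trend, block, time coding, threshold and each library were varied in turn.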

Additional observations from a re-analysis of the deposited data

How the results depend on the processing

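Of the 10 genes, 0 were called at 6, 12, 24 or 48 h, for the U87 slope or for the difference in slope under any alternative run, with no replicate block for cell line included. For the DBTRG-05MG slope 1 gene was called with a pseudocount of 5 FPKM (MYL9), 1 with time as hours (TPM1) and 2 at a threshold of 0.1 (ACTG1 and TPM1), and 0 to 1 when single libraries were left out. For the common slope 1 gene was called with time as hours (TPM1, adjusted p = 0.0429 in limma) and 0 to 1 when single libraries were left out. The count called between the lines stayed at 4 to 6. TPM1 joined it with median centring and upper quartile scaling. The mean change of TAGLN at 48 h ran from -1.51 to 0.33 when single libraries were left out, its sign turning without DBTRG-05MG at 48 h.

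Of the fits for the 10 genes, 19 gene and comparison pairs were tabulated for these alternatives, a choice made after the values and their turns of sign had been seen. Over all 90 pairs, 11 turned sign under at least 1 alternative other than leaving out a library, and 35 when a library was left out; 0 of these had been called. Those 11 were slopes or line differences of ACTA2, TAGLN, ACTB, CNN1, MYL9, SRF and FLNA, mostly under median centring or upper quartile scaling. The count of genes higher at 6 h in both lines was 8 to 9 of 10 over the scalings, against 20.7 to 31.9% of all genes. That of genes lower at 48 than at 0 h in both lines was 4 to 6 of 10, against 25 to 40.7%. With 1 library per line and time, and about 10.3 fragments behind the lowest CNN1 value, the design limits what can be called. Over all genes the calls moved more: 0 to 3 at 6, 12 and 24 h, 0 to 2 at 48 h, 0 to 474 for the common slope (9 as reported, the most with time as hours), 2 to 403 for the DBTRG-05MG slope (138), 0 to 450 for the U87 slope (0, the most without U87 at 0 h), 0 to 67 for the difference in slope (2) and 4451 to 8601 between the lines (6789). The DBTRG-05MG calls of CNN3 and ANKRD1 were also lost with time as log2(hours + 1), and that of ANKRD1 with a pseudocount of 0.1 FPKM. The causes of these shifts were not tested.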
